A study of Mus musculus with 18 samples.

Results

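The genes described here are those of tumour necrosis factor and the lymphotoxins, their receptors and the adaptors closest to them. The 8 members were taken by symbol from the table of read counts per gene: Tnf, Lta and Ltb (ligands), Tnfrsf1a, Tnfrsf1b and Ltbr (receptors), and Traf1 and Traf2 (adaptors). All 8 were found among the 54532 genes of the table. They were measured by RNA-seq in mice whose lower first molar had been pulled, with periodontitis or as controls, and sampled at 0 d, 3 d and 7 d. Every group had 3 libraries, described as biological replicates, which gave 18 libraries in 6 groups. The labels give the tissue as the mandibular first molar, whereas the series is named for the extraction socket. The sources used here do not give the strain, the age, how periodontitis was produced or whether animals were pooled. The p-values measure only the spread between these libraries.

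TNF is a cytokine made mainly by activated macrophages, mast cells and lymphocytes, first as a protein in the cell membrane and then as a soluble trimer. TNF and the soluble lymphotoxin alpha trimer both bind TNFR1 (Tnfrsf1a), which most cells carry, and TNFR2 (Tnfrsf1b), which is found chiefly on immune and endothelial cells. Lymphotoxin alpha held at the membrane by lymphotoxin beta binds a separate receptor, LTBR, which drives the formation of lymphoid tissue. The receptors signal through TRAF adaptors to the transcription factor NF-kB, and several target genes of NF-kB then limit the signal. In inflamed periodontal tissue, TNF is known as a promoter of osteoclast formation and bone loss.

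The 3 ligand genes are neighbours. On build GRCm38, Ltb lies at chr17:35194439-35196320 on the forward strand, Tnf at chr17:35199381-35202007 on the reverse strand and Lta at chr17:35203165-35205351 on the reverse strand. Between Tnf and Ltb lie 3060 bases, and between Lta and Tnf 1157 bases. A pair of receptor genes also sits together, with Ltbr at chr6:125306571-125313885 on the reverse strand and Tnfrsf1a at chr6:125349362-125362484 on the forward strand, 35476 bases apart. Tnfrsf1b (chr4:145213463-145246870), Traf1 (chr2:34941750-34961772) and Traf2 (chr2:25517982-25546940) are on the reverse strand of their chromosomes. A pseudogene, Gm13433, overlaps Traf2 on the other strand, and reads from the 2 cannot be told apart if strand was not used in counting, which is not stated. Tnf and Ltb are the neighbours that differed between arms in opposite directions over the mean of the days as described below, so the sequences upstream of both are shown. They were taken from RefSeq promoter windows (build GRCm38.p6), in which all 8 members had an entry, and cover the bases before the gene's start in the annotation, at chr17:35202008-35202257 (reverse strand) for Tnf and chr17:35194257-35194438 (forward strand) for Ltb. For Ltb the RefSeq start lies further on, so that the last 68 bases of its 250-base window fall inside the annotated gene and are not printed. Capitals mark a TATAAA box in Tnf and a match to a form of the NF-kB motif (GGG, any 2 bases, then TTTCC) in Ltb, where it is read on the opposite strand.
Tnf: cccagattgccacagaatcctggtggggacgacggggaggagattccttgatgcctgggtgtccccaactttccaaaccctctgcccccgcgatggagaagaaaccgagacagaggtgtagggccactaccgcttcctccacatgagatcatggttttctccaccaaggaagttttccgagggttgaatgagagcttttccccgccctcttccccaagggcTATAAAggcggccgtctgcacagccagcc
Ltb: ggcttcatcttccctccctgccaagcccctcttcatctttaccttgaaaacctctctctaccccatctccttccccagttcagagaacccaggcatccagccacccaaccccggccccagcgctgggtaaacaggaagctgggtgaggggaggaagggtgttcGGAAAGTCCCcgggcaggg
The NF-kB letters were searched on both strands of the 250 bases before each RefSeq start. Of 32851 windows, 464 (1.41%) held them, and Ltb was the member that did, at bases 87 to 78 before its RefSeq start, a count that includes the 68 bases not printed. TATAAA stood in 4063 windows (12.4%), among the members in Tnf (bases 29 to 24 before the start) and in Lta (bases 167 to 162). These are matches of letters and nothing more, and other forms of the motifs were not searched. Tnf mRNA also carries an AU-rich stretch through which the protein tristetraprolin (Zfp36) is known to shorten its life. The stretch below is bases 437 to 466 of the 764-base 3′ UTR (GENCODE M21 transcript), with its 5 copies of ATTTA, some of them overlapping, in capitals.
Tnf AU-rich element: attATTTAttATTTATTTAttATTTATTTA
The whole 3′ UTR of Tnf held 8 copies of ATTTA and 5 of TTATTTATT. At least 1 TTATTTATT was present in the 3′ UTR of 7.65% of 21037 genes, and 0.2% had as many as Tnf. Lta had 1 such nonamer in its 3′ UTR, and the other 6 members had 0.

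**Figure D1:**
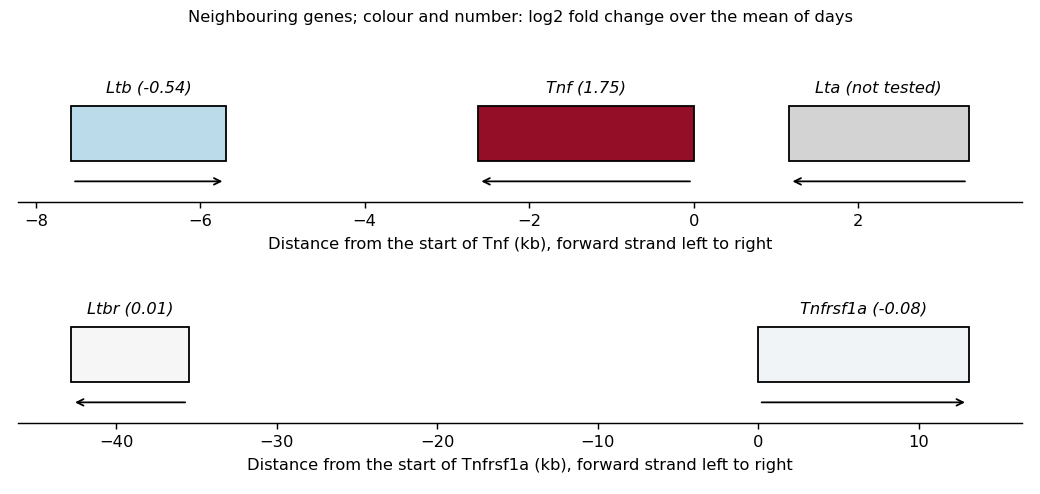
Map of the neighbouring genes, drawn to scale along the forward strand, with distance in kb from the start of Tnf (top) and of Tnfrsf1a (bottom) and arrows for the direction of transcription. Boxes are coloured and labelled by log2 fold change of periodontitis over control over the mean of the days: Tnf stands at 1.75 beside Ltb at -0.54, and Ltbr and Tnfrsf1a stand near 0.

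Libraries held 14139830 to 17763605 counts. Levels are given as CPM, a gene's counts scaled to the total of its library with TMM factors. The bone genes Col1a1, Bglap, Ibsp, Sp7, Runx2, Dmp1 and Sost had at least 12.2 CPM in all 18 libraries. The dentine gene Dspp ranged over 0 to 1.59 CPM in the periodontitis libraries and over 0.627 to 589 CPM in the control libraries. The enamel gene Amelx was at 0 in 15 of 18 libraries. Of 9 bone and tooth genes tested, 5 were lower and 1 higher in periodontitis at 0 d (adjusted p under 0.05 in edgeR, median log2 fold change -1.05). Of all genes tested, 3.47% were lower and 4.81% higher. In all, 5 libraries held transcripts of autonomic ganglion neurons (mean log2 CPM of an 18-gene list above 2) and are called neuron-rich. They were periodontitis 0 d replicates 1 and 3, periodontitis 3 d replicates 1 and 2 and control 3 d replicate 2. Leaving them out keeps 1 library in periodontitis 0 d, 1 in periodontitis 3 d and 2 in control 3 d. Calls lost in that setting thus cannot be told apart from lost replication. In skeletal muscle genes, the mean log2 CPM was 1.90 to 5.63 in periodontitis and 0.64 to 1.60 in control at 0 d. Since whole tissue was sequenced, fewer cells of a type and less RNA per cell cannot be told apart. The part of this tissue content in the results below was not tested beyond the values given beside them.

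Per kb of the deposited gene length, the receptor genes were the most abundant members. That length is 8819 bases for Traf1 and 1639 for Tnf. How it relates to the transcripts present is not stated, and the order of members depends on it. In periodontitis at 0 d, Tnfrsf1a averaged 105 CPM per kb, Tnfrsf1b 67.6, Ltbr 36.5, Tnf 27.0, Traf2 8.13, Traf1 5.79, Ltb 4.94 and Lta 0.182. In control at 0 d the values were 113 for Tnfrsf1a, 42.7 for Tnfrsf1b, 36.7 for Ltbr, 7.08 for Traf2, 6.71 for Ltb, 5.08 for Tnf, 3.62 for Traf1 and 0.216 for Lta. By this measure Tnf stood above Traf2, Traf1, Ltb and Lta in periodontitis, and above Traf1 and Lta alone in control. In CPM without division by length, Traf1 stood above Tnf at 0 d in both arms. The means were 51.0 and 44.2 CPM in periodontitis, and 31.9 and 8.32 CPM in control. At 7 d Tnf was at 2.02 CPM per kb in periodontitis and 0.802 in control, with Lta alone below it in both arms. Lta, the gene of lymphotoxin alpha, was close to the limit of detection throughout, with 0 to 9 counts in a library.

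**Figure D2:**
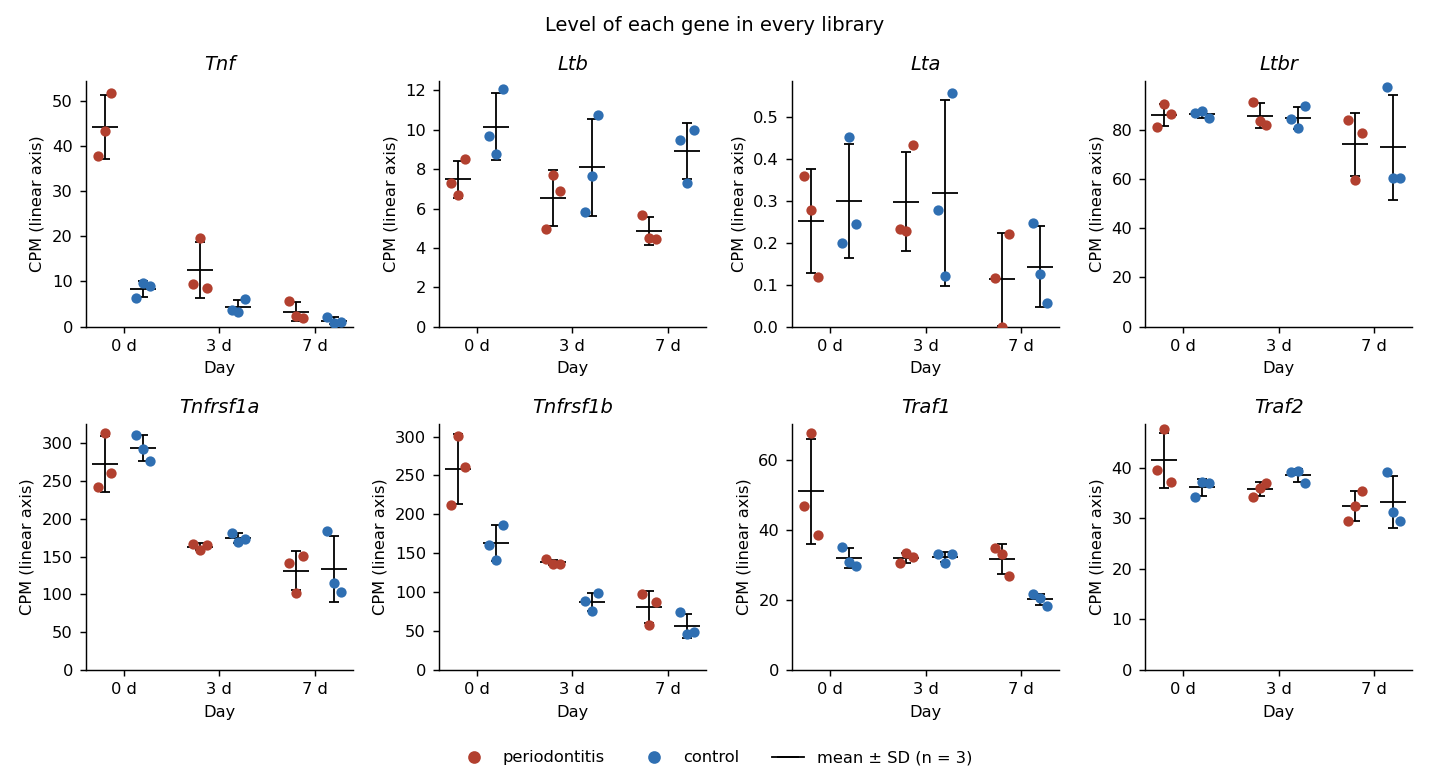
CPM (linear axis) of each of the 8 genes by day, 1 point per library, periodontitis left of control, with bars for mean ± SD of 3 libraries. Tnf in periodontitis at 0 d (37.7 to 51.8 CPM) lies above all other groups, and the 2 TNF receptor genes decline with time in both arms.

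At 0 d, the first time point, Tnf was the member that differed most between arms. Periodontitis libraries had 37.7, 43.2 and 51.8 CPM of Tnf, against 6.29, 9.59 and 9.09 CPM in control libraries. Every periodontitis library was well above the highest control library, and the groups did not overlap. The share of all genes without overlap was not counted, so lack of overlap is given here and below as a description only. Tnf was higher in periodontitis by a log2 fold change of 2.41 ± 0.43 (SE, n = 3 per group), a 5.31-fold difference with adjusted p = 0.00687 by the quasi-likelihood test of edgeR after Benjamini-Hochberg adjustment over 18697 genes. The periodontitis library below the neuron-rich cutoff (replicate 2) had 43.2 CPM, between replicates 1 and 3. Its mean log2 CPM of the neuron list was 0.82, still above the -1.36 to -0.79 of control at 0 d. Muscle genes had a mean log2 CPM of 1.90, 3.85 and 5.63 in replicates 1, 2 and 3, the same order as their Tnf levels. In control at 0 d the highest was 1.60. With the 5 neuron-rich libraries left out, which leaves 1 periodontitis library at 0 d that is assumed to vary like the other groups, the difference was 2.40 ± 0.50 and the call was lost (adjusted p = 0.0801). With neuron and muscle lists as covariates it was 1.83 ± 0.72 (adjusted p = 0.422), the highest p among 17 other settings, whose lowest was 1.46e-06.

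Ltb, whose product anchors lymphotoxin alpha to the membrane of lymphocytes, lay the other way at 0 d. It had 7.27, 6.68 and 8.50 CPM in periodontitis libraries, against 9.66, 8.75 and 12.1 CPM in control libraries. The groups did not overlap, by a narrow margin, and the difference of -0.44 ± 0.24 did not pass (adjusted p = 0.259). Lta had 6, 4 and 2 counts in periodontitis libraries and 3, 7 and 4 counts in control libraries. Pooled over the libraries of a group this is 0.250 CPM (95% Poisson interval 0.129 to 0.437) in periodontitis and 0.298 CPM (0.163 to 0.501) in control, intervals that cover counting error only. Lta did not pass the low-count filter. Fitted without it, its difference was -0.22 ± 0.87 (adjusted p = 1), which leaves room for a change of either sign.

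Among the receptors at 0 d, Tnfrsf1b stood higher in periodontitis, while Tnfrsf1a and Ltbr overlapped between the arms. Its levels were 212, 301 and 261 CPM in periodontitis libraries, against 160, 142 and 187 CPM in control libraries, without overlap. The difference of 0.66 ± 0.20 missed the threshold (adjusted p = 0.0558). It passed in 5 of 17 other settings, among them DESeq2 (adjusted p = 0.0150), within a range of 0.0150 to 0.606. Tnfrsf1a, the gene of the more widespread receptor, ranged over 243 to 314 CPM in periodontitis and 277 to 311 CPM in control (-0.11 ± 0.18, adjusted p = 0.769). Ltbr ranged over 81.3 to 90.3 CPM in periodontitis and 84.7 to 87.5 CPM in control, with a difference of -0.01 (95% interval -0.32 to 0.31).

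Of the adaptors, Traf1 rose at 0 d and Traf2 did not pass. Traf1, itself a target gene of NF-kB, had 46.8, 67.7 and 38.6 CPM in periodontitis libraries, against 35.1, 30.8 and 29.8 CPM in control libraries. The lowest periodontitis library was just above the highest control library. The difference was 0.68 ± 0.16 (adjusted p = 0.0240). Leaving out periodontitis replicate 1, control replicate 2 or control replicate 3 raised the adjusted p to 0.0553, 0.0753 or 0.0926, within a range over all settings of 0.00152 to 0.249. Traf2, which most cells express and which carries the ubiquitin ligases cIAP1 and cIAP2 to the receptor, ranged over 37.2 to 47.6 CPM in periodontitis and 34.1 to 37.2 CPM in control (0.20 ± 0.12, adjusted p = 0.309). In all, 2 of the 7 members tested were called at 0 d, both higher, where 8.27% of all genes tested were called, 4.81% higher and 3.47% lower.

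**Figure D3:**
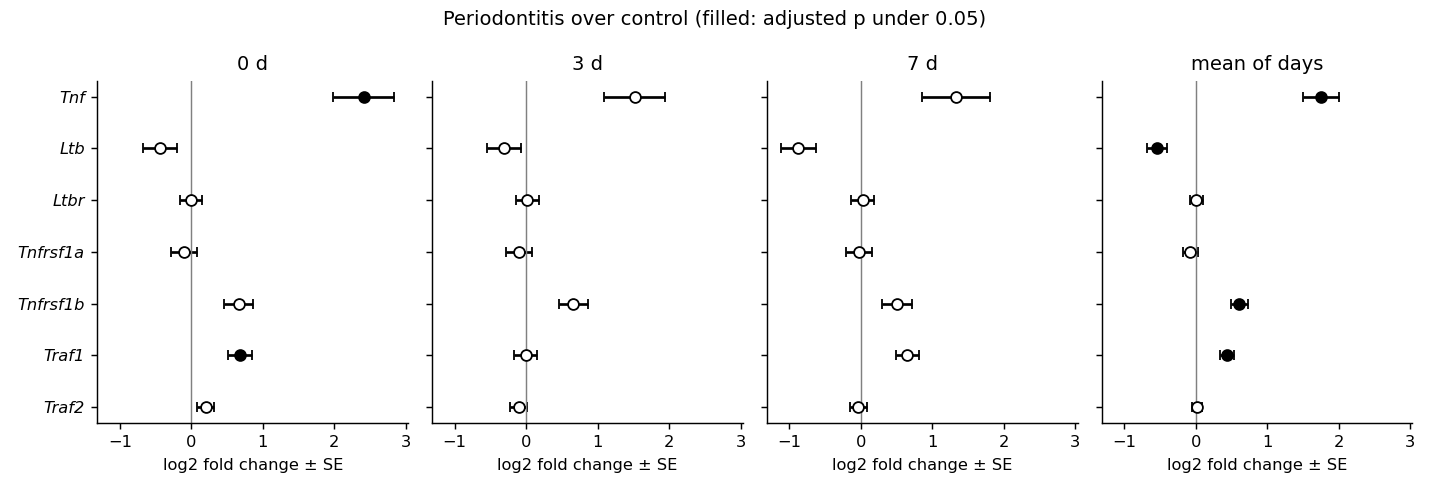
Log2 fold change of periodontitis over control for the 7 members tested, on each day and for the mean of days, with bars for ± SE (3 libraries per group on a day) and filled points for adjusted p under 0.05. Tnf is the gene farthest to the right in each panel, Ltb is left of 0 in each, and Ltbr, Tnfrsf1a and Traf2 stay close to 0.

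At 3 d, 0 of 7 members were called, where edgeR called 0.134% of all genes, 0.0695% higher and 0.0642% lower, and 1544 had an unadjusted p under 0.05. Tnf still had no overlap between arms. Its levels were 9.37, 19.7 and 8.57 CPM in periodontitis libraries, against 3.73, 3.20 and 6.20 CPM in control libraries (1.52 ± 0.43, adjusted p = 0.199). The highest library, periodontitis replicate 2, was rich in ganglion transcripts, as was replicate 1 at 9.37 CPM, whereas replicate 3 at 8.57 CPM was not. Replicate 3 held muscle transcripts instead, with a mean log2 CPM of the muscle list of 3.36, against -0.93 to -0.32 in control at 3 d. Tnfrsf1b had 142, 136 and 136 CPM in periodontitis libraries, against 88.6, 75.3 and 98.8 CPM in control libraries, again without overlap (0.66 ± 0.21, adjusted p = 0.267). In DESeq2, Tnf was called at 3 d (adjusted p = 0.0274, within a range over settings of 0.0274 to 1), 1 member of 7, and in a fit of the 3 d libraries alone Tnfrsf1b was called (adjusted p = 0.0480, within 0.0480 to 1). Traf1 overlapped at 3 d, at 30.5, 33.4 and 32.2 CPM in periodontitis libraries and 33.0, 30.6 and 33.0 CPM in control libraries, a difference of -0.01 (95% interval -0.33 to 0.31). Tnfrsf1a and Traf2 did not overlap either but differed by only -0.10 and -0.11, so that lack of overlap did not mark a large difference. Ltb overlapped at this day, with 4.94 to 7.72 CPM in periodontitis and 5.85 to 10.7 CPM in control (-0.31 ± 0.24).

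At 7 d, edgeR called 0 of 7 members and 0% of all genes, with 1188 genes at an unadjusted p under 0.05. DESeq2 called 112 genes, and among the members Traf1 (adjusted p = 0.0361, within a range over settings of 0.0361 to 0.850). Traf1 had 34.9, 33.1 and 26.8 CPM in periodontitis libraries, against 21.6, 20.4 and 18.3 CPM in control libraries, without overlap (0.65 ± 0.16, edgeR adjusted p = 0.317). Ltb had 5.67, 4.48 and 4.43 CPM in periodontitis libraries, against 9.49, 7.29 and 9.98 CPM in control libraries. The arms did not overlap, and this was the widest of its 3 differences by day (-0.87 ± 0.24, adjusted p = 0.381). Tnf was low in both arms, at 5.67, 2.34 and 1.94 CPM in periodontitis libraries and 2.16, 0.816 and 0.970 CPM in control libraries, and the arms overlapped (1.33 ± 0.47, adjusted p = 0.627). Tnfrsf1b overlapped as well, with 57.2 to 97.3 CPM in periodontitis and 46.6 to 74.6 CPM in control (0.51 ± 0.21, adjusted p = 0.680). Ltbr, Tnfrsf1a and Traf2 differed by 0.03, -0.02 and -0.04. Pooled Lta stood at 0.119 CPM (0.0435 to 0.258) in periodontitis and 0.141 CPM (0.0566 to 0.290) in control.

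Over the mean of the 3 days, a contrast built from the same libraries, 4 of 7 members were called, where 4.67% of all genes were (2.01% higher and 2.66% lower). Tnf (1.75 ± 0.26, adjusted p = 0.00171), Tnfrsf1b (0.61 ± 0.12, adjusted p = 0.00935) and Traf1 (0.44 ± 0.094, adjusted p = 0.0150) were higher in periodontitis. Ltb was lower (-0.54 ± 0.14, adjusted p = 0.0367). The calls for Tnf, Tnfrsf1b and Traf1 held when any 1 of the 18 libraries was left out, whereas that for Ltb held in 4 of the 18 cases, with differences over all settings of -0.77 to -0.46. With the muscle list as a covariate only Tnf was called, while Tnfrsf1b (adjusted p = 0.0820), Traf1 (adjusted p = 0.0805) and Ltb (adjusted p = 0.0593) were not. With the neuron and muscle lists together none of the 4 was called, at 1.45 ± 0.41 for Tnf (adjusted p = 0.114), 0.56 ± 0.18 for Tnfrsf1b (adjusted p = 0.164), 0.60 ± 0.14 for Traf1 (adjusted p = 0.0856) and -0.77 ± 0.22 for Ltb (adjusted p = 0.121). These were the highest adjusted p values of Tnf, Tnfrsf1b and Traf1 over all settings, whose lowest were 1.16e-09, 5.21e-05 and 3.96e-04. That of Ltb ranged over 0.00780 to 0.212. Without the neuron-rich libraries, Tnf (1.52 ± 0.30, adjusted p = 0.0367) and Traf1 (0.59 ± 0.10, adjusted p = 0.0239) were called, and Tnfrsf1b (0.67 ± 0.17, adjusted p = 0.0784) and Ltb (-0.56 ± 0.19, adjusted p = 0.212) were not. Ltbr (0.01), Tnfrsf1a (-0.08 ± 0.11) and Traf2 (0.02) were not called. Their 95% intervals ran over -0.17 to 0.19, -0.28 to 0.13 and -0.12 to 0.15.

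Ratios within a library do not depend on scaling, and that of the 2 TNF receptor genes set the arms apart on every day. Per kb, Tnfrsf1b stood to Tnfrsf1a at 0.592, 0.650 and 0.679 in periodontitis libraries at 0 d, against 0.349, 0.329 and 0.458 in control libraries. At 3 d the ratio was 0.580, 0.585 and 0.558 in periodontitis libraries, against 0.331, 0.301 and 0.386 in control libraries. At 7 d it was 0.464, 0.383 and 0.391 in periodontitis libraries, against 0.276, 0.276 and 0.322 in control libraries. No day showed an overlap, and the ratio declined with time in both arms, with means of 0.640, 0.574 and 0.413 in periodontitis and 0.379, 0.340 and 0.291 in control at 0 d, 3 d and 7 d. The ratio of Tnf to Ltb moved further, with means of 5.47 ± 0.613 in periodontitis and 0.771 ± 0.216 in control at 0 d, 1.75 ± 0.605 and 0.504 ± 0.106 at 3 d, and 0.604 ± 0.281 and 0.135 ± 0.0659 at 7 d (SD, n = 3), without overlap on any day. The ratio of Traf1 to Traf2 was 0.702 ± 0.112 in periodontitis and 0.513 ± 0.0707 in control at 0 d, 0.519 ± 0.0154 and 0.485 ± 0.0331 at 3 d, and 0.571 ± 0.125 and 0.352 ± 0.0298 at 7 d, and it overlapped at 3 d. These ratios are given as a description, without a test.

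**Figure D4:**
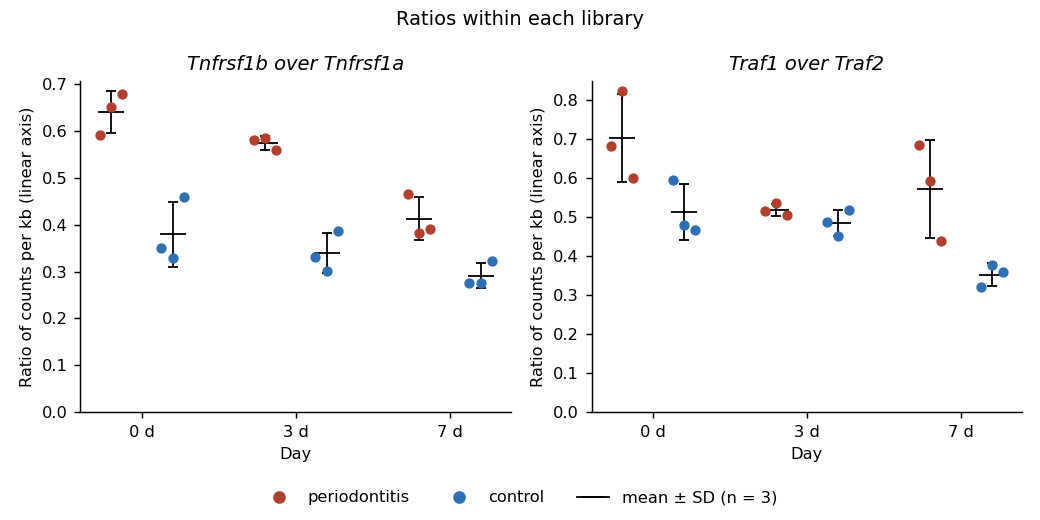
Ratio of counts per kb of Tnfrsf1b to Tnfrsf1a (left) and of Traf1 to Traf2 (right) in each library by day, on linear axes from 0, with periodontitis left of control and bars for mean ± SD of 3 libraries. The receptor ratio of periodontitis libraries (0.383 to 0.679) lies above that of the control libraries on each day, and the adaptor ratio overlaps at 3 d.

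Cell content moved with some of these differences. Lymphotoxin beta is made by B cells among others, and a list of 8 B cell genes summed to 21.8 to 64.4 CPM in periodontitis and 116 to 224 CPM in control at 0 d. The sums were 11.6 to 18.3 CPM in periodontitis and 29.4 to 34.7 CPM in control at 3 d, and 9.09 to 19.7 CPM in periodontitis and 28.7 to 75.7 CPM in control at 7 d. Of the 8 genes, 6 were called lower in periodontitis at 0 d (median log2 fold change -1.94), 0 at 3 d (-1.23) and 0 at 7 d (-2.10), and none of the 8 was at 0 in any library. Over the mean of the days, the contrast in which Ltb was called lower, 6 of the 8 B cell genes were called lower too (median -1.76), and their part in its level was not tested. For 8 T cell genes the sums at 0 d were 14.9 to 22.4 CPM in periodontitis and 19.9 to 21.6 CPM in control, with 0 called. Beside Tnf, 9 monocyte and macrophage genes summed to 756 to 970 CPM in periodontitis and 819 to 853 CPM in control at 0 d, with 0 called higher and 1 lower. Of 6 mast cell genes, 3 were called higher at 0 d (sums 45.8 to 71.3 CPM in periodontitis and 43.5 to 48.6 CPM in control), and Fcer1a was at 0 in 1 of the 18 libraries. Neutrophil genes (8) summed to 2106 to 8200 CPM in periodontitis and 8611 to 16810 CPM in control at 0 d, with 0 called then (median -0.94) and 6 of 8 called lower over the mean of the days (median -1.47). Erythroid genes were lower as well, with 5 of 9 tested called at 0 d (median -2.03) and 6 of 9 over the mean of the days (median -1.41). The part of these cells in the levels of the members was not tested.

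With time after extraction, the members that were called all fell, in both arms. Comparisons of days within an arm share their libraries, those of 0 d among them. In periodontitis at 7 d against 0 d, 5 of 7 members were lower, where 39% of all genes were called, 18.3% higher and 20.7% lower. Tnf fell most, to 3.32 ± 2.05 CPM at 7 d, against 44.2 ± 7.12 CPM at 0 d (-3.73 ± 0.46, adjusted p = 2.12e-05). Tnfrsf1b fell to 80.5 ± 20.8 CPM, against 258 ± 44.8 CPM (-1.68 ± 0.21, adjusted p = 2.52e-05), and Tnfrsf1a to 131 ± 26.4 CPM, against 273 ± 37.1 CPM (-1.05 ± 0.19, adjusted p = 5.37e-04). Traf1 (-0.69 ± 0.16, adjusted p = 0.00414) and Traf2 (-0.35 ± 0.12, adjusted p = 0.0277) fell by less. Markers of several cell types fell in the same comparison, with 17 of 17 neuron genes tested called lower (median -8.07), 9 of 9 erythroid, 8 of 13 muscle, 5 of 8 neutrophil, 5 of 8 B cell and 4 of 6 mast cell genes. Their part in the fall of the members was not tested beyond the covariate fits, in which 5 members were called with the neuron list, 4 with the muscle list and 3 with both. Ltb at -0.62 ± 0.24 was just short of the threshold (adjusted p = 0.0519), and Ltbr at -0.21 ± 0.16 was not called. At 3 d against 0 d, Tnf (-1.82 ± 0.42, adjusted p = 0.00592), Tnfrsf1b (-0.90 ± 0.21, adjusted p = 0.00570), Tnfrsf1a (-0.74 ± 0.19, adjusted p = 0.0102) and Traf1 (-0.67 ± 0.16, adjusted p = 0.00830) were called lower, 4 of 7 where 21.2% of all genes were called, 9.02% higher and 12.2% lower. Muscle genes moved with these days too, with a mean log2 CPM of -0.50 to 3.36 at 3 d and 1.90 to 5.63 at 0 d in periodontitis. With the muscle list as a covariate the count was 0. Without the neuron-rich libraries, 1 periodontitis library was left at 0 d and 1 at 3 d, so no count is given. At 7 d against 3 d, Tnf (-1.92 ± 0.44, adjusted p = 0.0267) and Tnfrsf1b (-0.78 ± 0.21, adjusted p = 0.0438) were lower, where 4.8% of all genes were called, 2.17% higher and 2.63% lower. Leaving out any 1 library of either day lost at least 1 of these 2 calls.

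In control at 7 d against 0 d, 4 of 7 members were lower, where 41.3% of all genes were called, 20% higher and 21.4% lower. Tnf fell to 1.31 ± 0.734 CPM at 7 d, against 8.32 ± 1.78 CPM at 0 d (-2.66 ± 0.47, adjusted p = 3.32e-04). Tnfrsf1b fell to 56.7 ± 15.6 CPM, against 163 ± 22.7 CPM (-1.52 ± 0.21, adjusted p = 3.59e-05), and Tnfrsf1a to 134 ± 43.6 CPM, against 293 ± 17.3 CPM (-1.13 ± 0.19, adjusted p = 1.81e-04). Traf1 also fell (-0.66 ± 0.16, adjusted p = 0.00426). All 4 calls held in each of the 17 other settings. In this comparison 9 of 9 erythroid genes, 6 of 8 B cell, 4 of 5 NK cell and 4 of 8 neutrophil genes were called lower too, as were 2 of 9 monocyte and macrophage genes, with 2 of 9 higher. The part of these cells in the fall of the members was not tested. Ltb (-0.19 ± 0.24) and Ltbr (-0.24 ± 0.16) were not called. At 3 d against 0 d, Tnfrsf1b (-0.90 ± 0.21, adjusted p = 0.00327) and Tnfrsf1a (-0.75 ± 0.19, adjusted p = 0.00550) were lower, 2 of 7 where 34.7% of all genes were called, 16.4% higher and 18.3% lower. Traf1 was not called (0.02 ± 0.16), with its levels of 33.0, 30.6 and 33.0 CPM at 3 d within the 29.8 to 35.1 CPM of 0 d. Between these days 9 of 9 erythroid, 7 of 8 B cell, 5 of 8 neutrophil and 3 of 5 NK cell genes were called lower. Of 9 monocyte and macrophage genes, 6 were higher and 2 lower, and of 17 neuron genes 7 were higher and 0 lower. The neuron list was high in replicate 2 alone at 3 d (mean log2 CPM 4.91, against -0.72 and -0.49 in replicates 1 and 3). The part of these cells was not tested. At 7 d against 3 d, Tnf (-1.73 ± 0.47, adjusted p = 0.0298) and Traf1 (-0.68 ± 0.16, adjusted p = 0.0178) were lower, where 10.9% of all genes were called, 4.99% higher and 5.87% lower. This last count depended on single libraries, with 6 members called lower without control 7 d replicate 1 and 0 called without control 3 d replicate 1 or 3 or control 7 d replicate 2 or 3. In that replicate 1, Tnfrsf1a stood at 184 CPM, against 115 and 103 CPM in the other two, and Ltbr at 97.6 CPM, against 60.5 and 60.6 CPM.

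Whether the arms changed differently with time was tested as an interaction. The test called 0 of 7 members for the change of 3 d against 0 d, where 0.016% of all genes were called (0.0107% higher and 0.00535% lower) and 2228 had an unadjusted p under 0.05. For 7 d against 0 d it also called 0 of 7, where 0.0428% of all genes were called (0.0321% higher and 0.0107% lower) and 2990 had an unadjusted p under 0.05. DESeq2 called 0 of 7 in both cases. The difference in change between periodontitis and control was -0.89 ± 0.59 (adjusted p = 0.592) and -1.08 ± 0.63 (adjusted p = 0.421) for Tnf. For Traf1 it was -0.69 ± 0.23 at 3 d (adjusted p = 0.300) and -0.03 ± 0.23 at 7 d (adjusted p = 0.967). A different course of any member in the 2 arms was thus not detectable with 3 libraries per group.

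Ranked over all 6 groups by mean level, Tnf ran in the order periodontitis 0 d (44.2 CPM), periodontitis 3 d (12.5), control 0 d (8.32), control 3 d (4.38), periodontitis 7 d (3.32) and control 7 d (1.31). Neither the first 2 groups nor control 0 d and control 3 d overlapped, while periodontitis 3 d overlapped with control 0 d, control 3 d with periodontitis 7 d, and periodontitis 7 d with control 7 d. Tnfrsf1b ran in the same order, with 258, 163, 138, 87.5, 80.5 and 56.7 CPM, except that control 0 d (163) stood above periodontitis 3 d (138), and these neighbours overlapped, as did control 3 d with periodontitis 7 d and periodontitis 7 d with control 7 d. Ltb was highest in control 0 d (10.2 CPM), followed by control 7 d (8.92), control 3 d (8.09), periodontitis 0 d (7.48), periodontitis 3 d (6.52) and periodontitis 7 d (4.86), and each neighbouring pair in this order overlapped. Ltbr spanned 72.9 to 86.3 CPM over the 6 group means and Traf2 32.4 to 41.5 CPM.

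The wider pathway was read from 7 lists of genes around these members, described by their counts and medians. The median of all genes tested was -0.02 at 0 d, where 4.81% of them were called higher and 3.47% lower. With the neuron and muscle lists as covariates, 0 of all genes were called at 0 d, so that each call of this day named below was lost. Without the neuron-rich libraries, Tnfaip3, Tnfaip2, Nfkbia, Fas and Tnfrsf9 were called among the genes named below and the others were not. Of 20 genes of the complex that forms at TNFR1, which decides between NF-kB signalling and cell death, 0 were called at 0 d (median log2 fold change -0.10). Of 10 other TRAFs and brakes on the signal, 3 were higher and 0 lower (median -0.05). Tnfaip3, the gene of A20, a ubiquitin-editing enzyme that shuts off NF-kB, averaged 358 ± 117 CPM in periodontitis and 114 ± 18.9 CPM in control (1.65 ± 0.24, adjusted p = 0.00360). Tnip1, an A20-binding partner (0.79 ± 0.16, adjusted p = 0.0134), and Traf4 (0.53 ± 0.15, adjusted p = 0.0399) were the others. Of 8 genes that shed TNF or govern its mRNA, 0 were called (median 0.20).

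Of the lymphotoxin receptor branch, 7 of 9 genes could be tested and 1 was higher (median 0.42), where 4.81% of all genes were higher. This was Cxcl13, a chemokine that draws B cells into lymphoid follicles, at 6.11 ± 5.13 CPM in periodontitis and 0.665 ± 0.240 CPM in control (3.19 ± 0.76, adjusted p = 0.0236). Its periodontitis libraries ranged over 1.53 to 11.7 CPM, an uneven set of values. Of 14 other ligands of the TNF superfamily, 8 could be tested and 1 was higher (median 0.42). This was Tnfsf10, the death ligand TRAIL, at 16.6 ± 3.38 CPM in periodontitis and 7.84 ± 1.91 CPM in control (1.08 ± 0.22, adjusted p = 0.0134). Of 20 other receptors, 18 were tested, with 2 higher and 2 lower (median -0.11), beside 4.81% higher and 3.47% lower of all genes. The death receptor gene Fas (1.06 ± 0.24, adjusted p = 0.0192) and the T cell co-stimulator gene Tnfrsf9 (1.35 ± 0.29, adjusted p = 0.0148) were higher. Relt was lower, at 25.9 ± 2.36 CPM in periodontitis and 42.2 ± 1.78 CPM in control (-0.70 ± 0.11, adjusted p = 0.00491). The other lower one, named after its value was seen, was Tnfrsf13c, the receptor of the B cell survival factor BAFF, at 2.11 ± 1.16 CPM in periodontitis and 9.07 ± 3.28 CPM in control (-2.11 ± 0.50, adjusted p = 0.0234). It is a B cell gene and stood beside the lower B cell list above.

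Genes that textbooks give as induced by TNF were tested as a list of 15, which shares Tnfaip3 and Birc3 with the lists above. At 0 d all 15 had positive log2 fold changes (median 0.62), and 5 were called higher and 0 lower, where 4.81% of all genes were higher. Besides Tnfaip3, Nfkbia, which encodes the NF-kB inhibitor IkB alpha, averaged 570 ± 146 CPM in periodontitis and 322 ± 46.2 CPM in control (0.82 ± 0.17, adjusted p = 0.0145). Tnfaip2 averaged 546 ± 167 CPM in periodontitis and 335 ± 12.9 CPM in control (0.70 ± 0.17, adjusted p = 0.0263). The other 2, named after their values were seen, were Il1b, a cytokine (2.23 ± 0.56, adjusted p = 0.0283), and Icam1, an adhesion molecule of endothelium (0.62 ± 0.16, adjusted p = 0.0340). Other signals through NF-kB are also known to induce these genes. With the cell content settings, tried on this list after the data were seen, the count of 5 became 3 with the neuron covariate, 1 with the muscle covariate (Tnfaip3), 0 with both and 4 without the neuron-rich libraries. All 15 values stayed positive in each of these settings, with medians of 0.61 to 1.01.

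**Figure D5:**
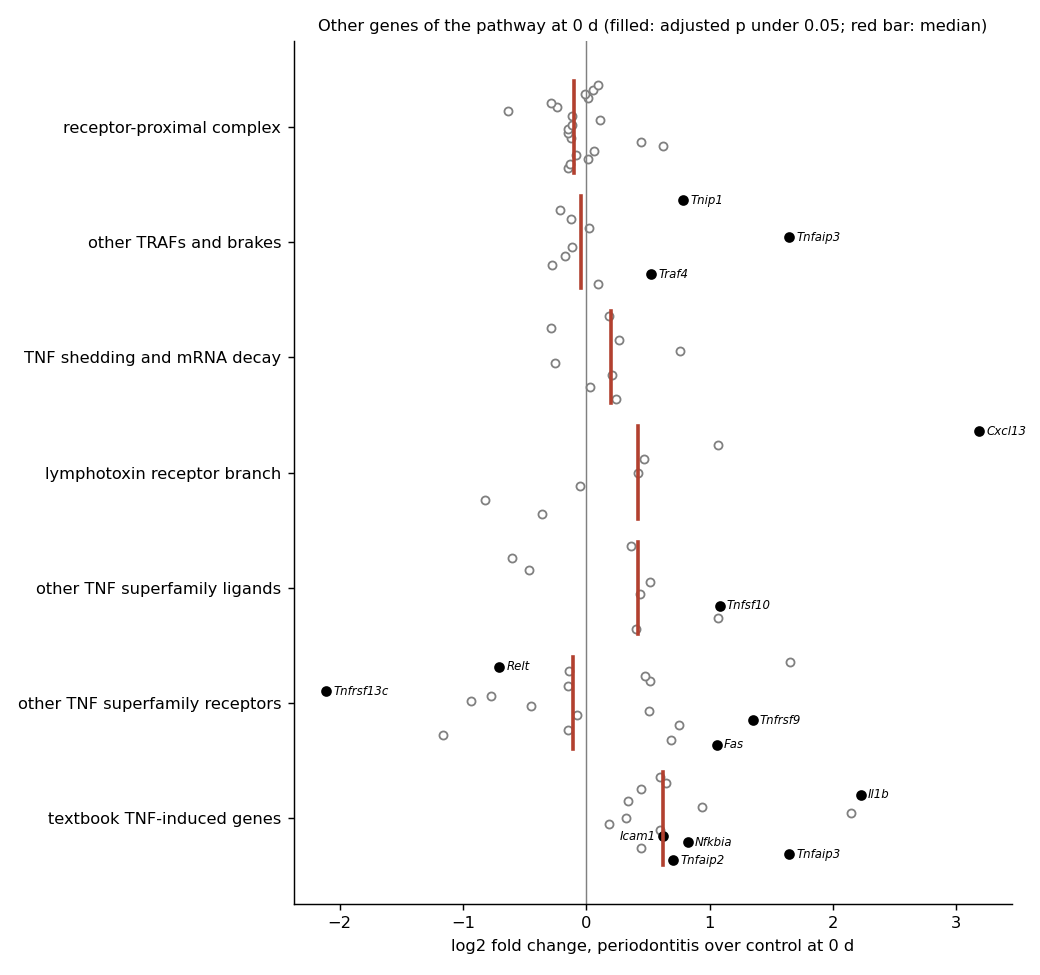
Log2 fold change of periodontitis over control at 0 d for each tested gene of the 7 pathway lists, 1 point per gene, with vertical position within a list only separating the points, filled and named points for adjusted p under 0.05 and a red bar for the list's median. All 15 TNF-induced genes lie right of 0 (median 0.62), whereas the genes of the receptor complex lie around a median of -0.10.

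At 3 d and 7 d, 0 genes were called in each of the 7 lists, where 0.134% and 0% of all genes were. The TNF-induced list had a median of 0.35 at 3 d, with 15 of 15 positive, and of 0.32 at 7 d, with 14 of 15 positive, beside medians of -0.004 and 0.01 over all genes. Over the mean of the days, 6 of the 15 were higher and 0 lower (median 0.44), where 2.01% of all genes were higher and 2.66% lower. That count was 3 with the muscle covariate and 0 with both covariates. Of the genes that shed TNF or govern its mRNA, Zfp36, named after its value was seen, was then higher (0.62 ± 0.14, adjusted p = 0.0238), a call that was lost with the muscle covariate, with both covariates and without the neuron-rich libraries. With time, 15 of 15 genes of the list were lower at 3 d against 0 d in periodontitis (median -2.29), where 12.2% of all genes were lower, and in control (median -1.74), where 18.3% were. Without the neuron-rich libraries, 1 periodontitis library was left at 0 d and 1 at 3 d, so no count is given for periodontitis. In control, with 2 libraries left at 3 d, the count was 14. Erythroid genes were called lower in the same comparisons in 9 of 9 cases in both arms. Neutrophil genes were lower in 7 of 8 cases in periodontitis and 5 of 8 in control, and B cell genes in 4 of 8 and 7 of 8. Monocyte and macrophage genes (9) went both ways, with 6 higher and 2 lower in control and 1 higher and 2 lower in periodontitis. Of 17 neuron genes tested, 7 were higher in control and 0 in periodontitis, with 0 lower in both. In control at 3 d, replicate 2 alone was neuron-rich. The part of these cells was not tested. At 7 d against 0 d, 15 of 15 were again lower in periodontitis (median -3.05), where 20.7% of all genes were lower, and in control (median -2.39), where 21.4% were. At 7 d against 3 d, 2 of 15 were lower in each arm, where 2.63% of all genes were lower in periodontitis and 5.87% in control. Of the receptor complex list, 1 of 20 genes was higher and 4 were lower at 7 d against 0 d in periodontitis (median -0.08). Of all genes, 18.3% were higher and 20.7% lower there. In control, 1 of the 20 was higher and 7 were lower (median -0.22), where 41.3% of all genes were called, 20% higher and 21.4% lower.

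Across the 18 libraries, the gene whose log2 CPM was most like that of Tnf, among 14919 compared, was Cd274, which encodes the checkpoint ligand PD-L1 (Pearson r = 0.971, and 0.724 for deviations from the group means). Il1a (0.970 and 0.711) and Il1rn (0.970 and 0.719), which encode an interleukin-1 and its receptor antagonist, followed. For Tnfrsf1b they were Slc15a3 (0.978), Ptafr (0.967) and Sh2d3c (0.965), and for Tnfrsf1a they were Furin (0.984), Rela (0.984) and Ddx24 (0.982). For Ltb they were Hopx (0.829), Ear1 (0.828) and Pglyrp1 (0.822). Those of Traf1 were Rnf149, Nfkbie and Slc11a2 (0.875 each), those of Traf2 Ecm1 (0.859), Tmem189 (0.825) and Mvp (0.823), and those of Ltbr Plod3 (0.909), Ergic1 (0.908) and Eef2 (0.906). Lta, at few counts, was closest to Cd2bp2 (0.876), Cand1 (0.840) and Tmed10 (0.838). Among the pairs named so far, the rank correlation (Spearman) was lowest for Ltbr with Plod3 (0.463) and Ergic1 (0.540), and for Traf1 with Nfkbie (0.641). Among the members, Tnf had its highest r with Tnfrsf1b (0.943) and its lowest with its neighbour Ltb (0.102). For deviations from the group means, Ltb (0.598), Ltbr (0.594) and Tnfrsf1b (0.574) had the highest r with Tnf and lay close together. Within groups, Ltbr and its neighbour Tnfrsf1a moved most alike (0.710, and 0.927 for deviations). Tnfrsf1b, on another chromosome, followed, with an r for deviations of 0.863 with Ltbr and 0.820 with Tnfrsf1a. These coefficients are descriptions over libraries that share arm, day and tissue content.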

How the data were processed

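Total RNA was extracted with TRIzol and made into libraries with the NEBNext Ultra RNA kit, per the labels' protocols. Deposited by the authors was a table of raw read counts, with symbols, lengths and coordinates. HISAT2, StringTie and SAMtools and the build mm9 are named per the submitters' processing notes. The sources used here do not give versions, the counting program, the strand setting or the release of the annotation. Of the 54532 gene identifiers, 99.8% occur in the GRCm38 annotation (GENCODE M21), and 98.3% of those found have the same coordinates there, so GRCm38 is used. Every row names a gene, and each count column was matched to 1 sample by its title. Libraries of a group all differed by more than counting noise (chi-square per gene at least 8.52).

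Genes were filtered with filterByExpr (minimum count 10), which left 18697 and dropped Lta, scaled by TMM and fitted with glmQLFit and glmQLFTest (edgeR 4.0.16, limma 3.58.1, R 4.3.3) with 1 mean per group. Benjamini-Hochberg adjustment ran within each of 12 comparisons, and genes were called under 0.05. SEs came from the F statistic. Log2 CPM used a prior count of 2. CPM per kb divides CPM by the deposited gene length. The code was tested on simulated data. Alternatives were RLE factors, library totals, no filter, at least 1 CPM in 9 libraries, DESeq2 1.42.0, the compared groups alone, a replicate block, muscle and neuron lists as covariates, and leaving out neuron-rich or single libraries.

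Members, lists and alternatives were chosen with earlier results of these data known. All members are named. Of each other list, up to 3 called genes with the smallest p per comparison of arms on a day are named, and per member the 3 protein-coding genes (at least 1 CPM in a group) with the highest r. A few named outside this rule are marked as such or belong to the contrast over the mean of the days.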

Additional observations from a re-analysis of the deposited data

How the results depend on the processing

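Of the counts of members called, that at 0 d (2) was 1 in the fit of the compared groups alone, with the muscle covariate and without the neuron-rich libraries, 0 with both covariates, and 1 to 2 when single libraries were left out. At 3 d (0) it was 1 with DESeq2 and 1 with the compared groups alone, and at 7 d (0) it was 1 with DESeq2. Over the mean of the days (4) it was 1 with the muscle covariate, 0 with both covariates and 2 without the neuron-rich libraries. In control at 3 d against 0 d (2) it was 0 without the neuron-rich libraries. In control at 7 d against 3 d (2) it was 1 with the compared groups alone and 1 without the neuron-rich libraries, and 0 to 6 when single libraries were left out. In periodontitis at 3 d against 0 d (4) it was 0 with the muscle covariate and 1 with both covariates. When single libraries were left out it was 2 to 4 (2 without periodontitis 0 d replicate 2). In periodontitis at 7 d against 3 d (2) it was 0 with the compared groups alone, with the neuron covariate, with both covariates and without the neuron-rich libraries, and 0 to 1 when single libraries were left out. In periodontitis at 7 d against 0 d (5) it was 3 with the compared groups alone and 3 with both covariates. The counts of control 7 d against 0 d and of both interactions stayed within 1.5 times. The count of TNF-induced genes called, recomputed after the data were seen, was 5 at 0 d and became 3 with the neuron covariate, 1 with the muscle covariate and 0 with both. Over the mean of the days it was 6 and became 3 with the muscle covariate and 0 with both. The cause was not tested.

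Replicate numbers are not stated to pair libraries. Deviations of same-numbered libraries had a median r of 0.00523 (-0.591 to 0.659), other pairs 0.0022. With so wide a range, these values cannot decide whether same-numbered libraries share an animal or batch. With the replicate block, 3 members were called at 0 d and 4 over the mean of the days. Among values of single members under an alternative, 1471 stayed as they were in call, 87 lost a call, 23 gained one, 8 that were never called changed sign by over 1 SE, and 0 called values changed sign. Over all genes, the 1547 calls at 0 d became 2686 with DESeq2, 65 with the compared groups alone, 193 with the neuron covariate, 994 with the muscle covariate, 0 with both and 63 without the neuron-rich libraries. Depth limits Lta, which has at most 9 counts in a library.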
